A study of Mus musculus with 15 samples.

Results

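The IL-6 and IL-12 family genes of the panel were described here in LPS-treated macrophages that had been given extracellular vesicles (EVs) from sham or irradiated mice. The members were the 8 rows with the symbols Il6, Il12a, Il12b, Il23a, Il27, Ebi3, Lif and Il6st, out of 561 genes on the nanoString nCounter Mouse Immunology panel, an assay that counts color-coded barcodes hybridized to each mRNA without amplification. RAW macrophages, an established mouse cell line, received LPS from Escherichia coli and, for 24 hours, EVs pelleted from the plasma of female C57BL/6J mice 6 to 8 weeks old, and no group was left without LPS or without EVs. The 5 groups of 3 samples each had EVs from sham mice, from mice 3 or 7 days after 2 Gy, and from mice 3 or 7 days after 9 Gy, where irradiation was of the whole body (WBIR) from a cesium source. The cells themselves were not irradiated. The sources differ on the EV dose, which the labels give as 30000000 EVs with lysis in Trizol, while the methods of the study give fewer EVs and lysis in RLT buffer. Samples were placed by their titles, but replicates 1 and 2 of the 9 Gy day 3 group carry a day of 7 in another label. The samples were run in triplicate and nothing in the sources used here says whether the replicates were separate cultures, so the p-values measure the spread between these samples, which may be technical.

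Total counts lay between 453178 and 837995 in the 12 samples outside the 9 Gy day 3 group and between 43176 and 87899 in that group. In the 9 Gy day 3 samples 190 to 246 of the 561 genes had a count of 1, the lowest value in the data, against 5 to 11 genes in the other samples. The summed normalized counts of the 8 of 10 listed macrophage marker symbols that were on the panel were 32440 to 35830 in the sham and 2 Gy samples and 14080 to 16070 in the 9 Gy samples, but as a share of all counts they were 4.74 to 5.39% and 4.39 to 5.51%, with overlap, so their fall was seen relative to the housekeeping genes and not to total counts. Among them, as normalized counts, Tyrobp was at a mean of 3242 in sham, 3330 in 9 Gy day 3 and 3327 in 9 Gy day 7 and Csf1r at 32.3, 163 and 120. All the others, Cd14, Itgam, Emr1, Cybb, Fcer1g and Cd74, had lower means in both 9 Gy groups than in sham. Cybb, the highest in sham, was at 13130, 6330 and 5941, and Cd74 at 7238, 1704 and 1579. The 10 T cell markers summed to 103 to 274 in all samples, where Cd8a, at raw counts of 9 to 175, and Lck, at 2 to 74, made up much of the sum and Cd3d, Cd3e and Cd4 had raw counts of 1 to 15. Cd8a had a normalized mean of 103 in sham, 57.7 in 9 Gy day 3 and 58.3 in 9 Gy day 7, and Lck of 49.1, 22.7 and 29.9. The 5 B cell, 2 NK cell and 5 neutrophil markers summed to at most 72.8, 35.1 and 70.7. The part of the macrophage and T cell markers in the results below was not tested. In such bulk lysates, fewer cells making a transcript and less of it per cell cannot be told apart.

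The 2 families are built from shared parts. IL-6 and LIF are secreted by activated cells and signal through the common transducer gp130, the product of Il6st, to JAK kinases and STAT3. The IL-12 family cytokines are pairs of an alpha chain, related to IL-6, and a beta chain, related to a soluble receptor: p35 (Il12a) and p40 (Il12b) form IL-12, p19 (Il23a) and p40 form IL-23, and p28 (Il27) and EBI3 form IL-27. In macrophages, LPS acts through TLR4, and NF-κB, AP-1, C/EBP and IRF factors are well-known activators of these genes.

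All 8 members matched the RefSeq gene table for the mouse build GRCm38.p6. They lie on 7 chromosomes: Il12a on chromosome 3 (68690644 to 68698550), Il6 on 5 (30013114 to 30019975), Il27 on 7 (126589009 to 126595035), Il23a on 10 (128296140 to 128298084), Lif (4257568 to 4272514) and Il12b (44400063 to 44414677) on 11, Il6st on 13 (112464070 to 112506860) and Ebi3 on 17 (55952623 to 55957022). Promoter entries, from 250 bases before to 50 after the start, were held for 6 members, with 2 entries for Il12a, and not for Il27 and Il23a. Shown here are the promoters of the 3 most lowered genes with an entry, Il6, Il12b and Ebi3, and of Lif, a less lowered one, so that a reader can set the sequences beside the changes. All 4 lie on the plus strand of GRCm38.p6, at chr5:30012864-30013163 for Il6, chr11:44399813-44400112 for Il12b, chr17:55952373-55952672 for Ebi3 and chr11:4257318-4257617 for Lif. Capitals mark matches, on either strand, to the NF-κB consensus, to AP-1 (TGANTCA), to C/EBP (TTGCNNAA) and to an IRF element core (AANNGAAA).
Il6: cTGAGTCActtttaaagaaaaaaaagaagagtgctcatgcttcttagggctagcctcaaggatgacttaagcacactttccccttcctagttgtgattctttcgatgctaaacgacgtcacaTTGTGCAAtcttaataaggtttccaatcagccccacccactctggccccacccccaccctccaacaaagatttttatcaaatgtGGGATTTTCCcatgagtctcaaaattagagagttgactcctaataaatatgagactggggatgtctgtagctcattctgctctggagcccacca
Il12b: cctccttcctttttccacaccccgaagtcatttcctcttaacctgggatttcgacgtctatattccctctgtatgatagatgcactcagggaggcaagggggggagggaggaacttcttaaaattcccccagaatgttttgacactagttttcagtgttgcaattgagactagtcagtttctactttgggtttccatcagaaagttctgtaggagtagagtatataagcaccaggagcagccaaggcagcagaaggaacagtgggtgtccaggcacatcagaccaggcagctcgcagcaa
Ebi3: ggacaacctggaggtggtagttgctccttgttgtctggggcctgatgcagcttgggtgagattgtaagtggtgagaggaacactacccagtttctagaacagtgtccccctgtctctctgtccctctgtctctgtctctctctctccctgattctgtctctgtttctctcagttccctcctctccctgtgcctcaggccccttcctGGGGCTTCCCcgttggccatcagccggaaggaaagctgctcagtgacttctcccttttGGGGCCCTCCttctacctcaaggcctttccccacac
Lif: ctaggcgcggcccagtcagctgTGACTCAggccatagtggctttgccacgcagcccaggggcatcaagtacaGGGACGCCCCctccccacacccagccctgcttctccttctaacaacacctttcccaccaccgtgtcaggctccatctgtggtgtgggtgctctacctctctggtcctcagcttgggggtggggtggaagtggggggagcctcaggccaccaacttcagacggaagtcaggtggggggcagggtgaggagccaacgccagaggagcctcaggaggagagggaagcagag

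In Il6 the capitals are, in order, an AP-1 match at base 2, a C/EBP match on the minus strand at base 123 and an NF-κB match at base 207, which begins 44 bases before the start. Ebi3 held an NF-κB match at the same base, 207, and another at base 265. Lif held an AP-1 match at base 23 and an NF-κB match at base 73. The Il12b window and both Il12a windows held none of the 4 patterns or the TATA box pattern (TATAAA), and the Il6st window held only an IRF element core, at base 27. Among all 32851 promoter windows of the same length, 8.46% held the NF-κB consensus, 7.81% AP-1, 10.8% C/EBP, 23.9% the IRF element core and 13.6% TATAAA. These matches are descriptions of letters, and no binding was measured.

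EVs from 9 Gy mice went with lower counts of most family members, and EVs from 2 Gy mice with none past the threshold. Counts were scaled to the panel's 14 housekeeping genes, and the 269 genes whose mean over all samples reached 20 counts were tested in edgeR (quasi-likelihood test, Benjamini-Hochberg adjusted p under 0.05). Of the 8 members 7 were tested, and Il12a, with a mean of 13.2 counts, was not. Against sham EVs, 6 of the 7 fell with EVs of 9 Gy day 3, where 41.3% of all genes tested fell, and 6 of 7 fell in the 9 Gy day 7 group, where 49.1% of all genes tested fell. Against the 2 Gy EVs of both days, all 7 fell with 9 Gy EVs, where 52.0% of all genes tested fell. The median log2 fold change of the tested members was -2.17 at day 3, -2.01 at day 7 and -2.02 against 2 Gy EVs, beside -0.46, -0.45 and -0.45 for all genes tested. These 3 comparisons share samples, as the 9 Gy groups enter the last and sham EVs the first 2, and so do not repeat each other independently.

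**Figure D1:**
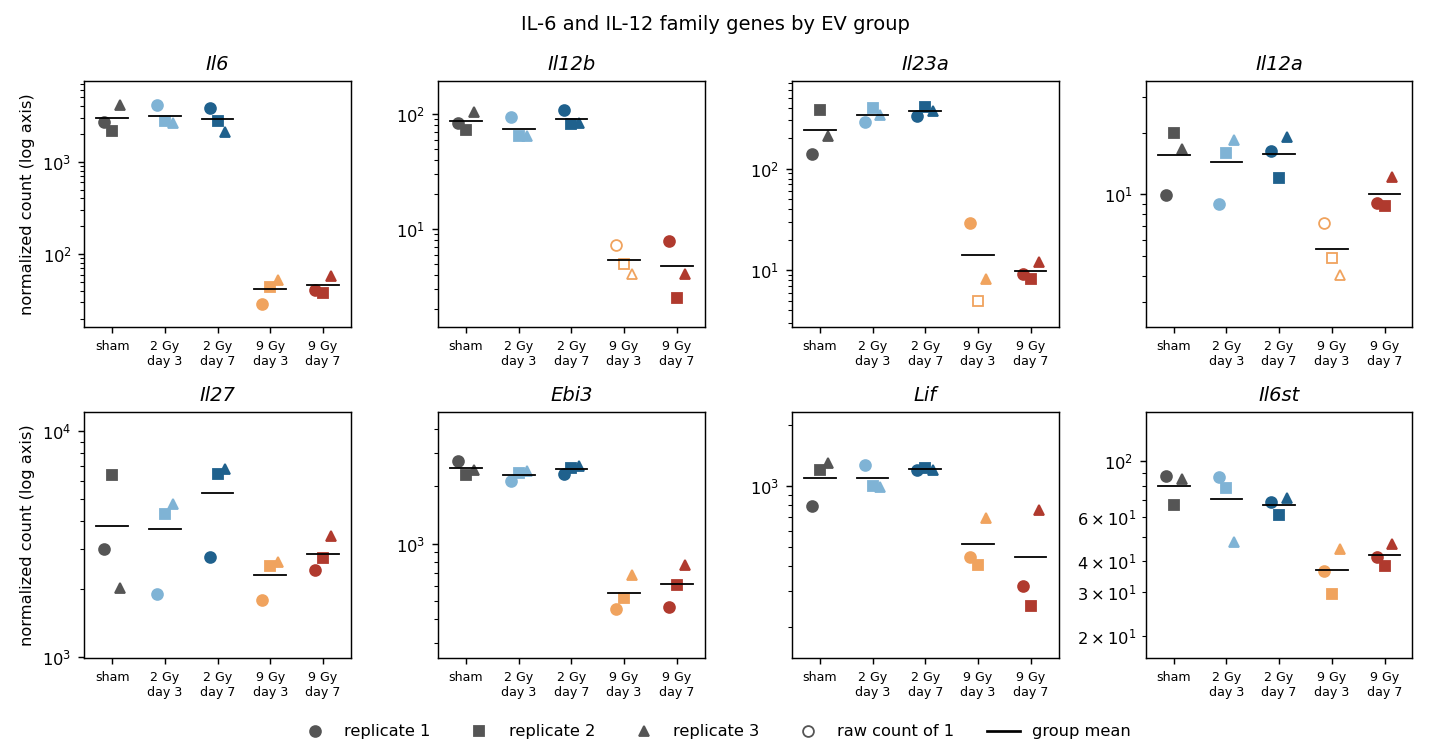
Normalized counts (log axis) of the 8 family genes in each sample of the 5 EV groups, with one marker shape for each replicate, a line at the group mean and open markers where the raw count was 1. Il6 lies between 2098 and 4146 in the sham and 2 Gy samples and between 29.1 and 58.4 in the 9 Gy samples, while the Il27 samples of each 9 Gy group overlap those of sham.

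How many members fell also depended on the scaling. The housekeeping genes made up 9.95 to 11.2% of all counts in the sham and 2 Gy samples and 14.3 to 17.4% in the 9 Gy samples. With scaling to total counts instead, the median of all genes tested moved to 0.56 at 9 Gy day 3, 0.65 at day 7 and 0.69 against 2 Gy EVs, and 4 of the 7 members were called lower in each of these comparisons, beside 12.3%, 11.5% and 13.4% of all genes tested. Those 4 were Il6, Il12b, Il23a and Ebi3. The split of all called genes moved with it, from 111 lower and 30 higher at day 3 under housekeeping scaling to 61 lower and 60 higher under median scaling and 33 lower and 121 higher under total counts. At day 7 the same 3 scalings gave 132 lower and 32 higher, 77 and 76, and 31 and 143, and against 2 Gy EVs they gave 140 and 42, 82 and 87, and 36 and 168.

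**Figure D2:**
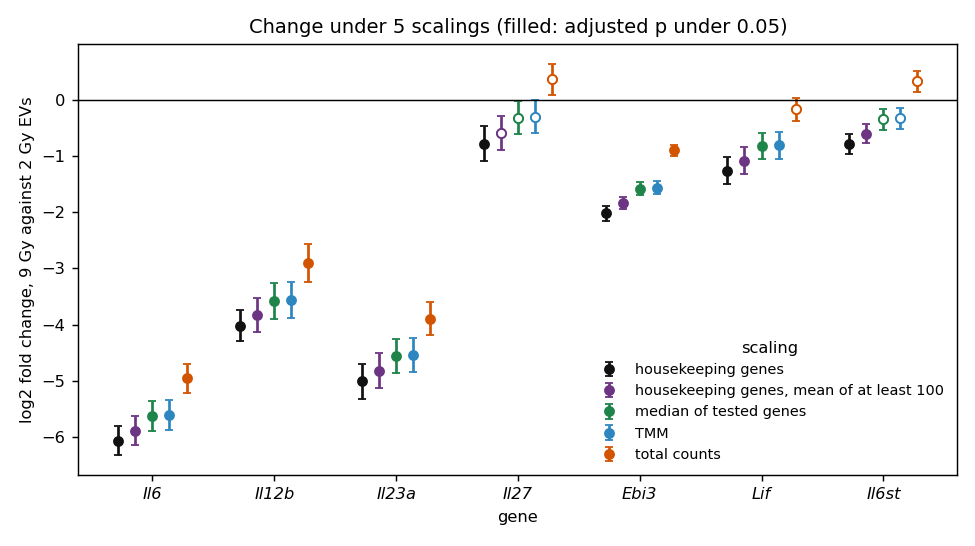
Log2 fold change of the 7 tested members with 9 Gy EVs against 2 Gy EVs (points, with SE as bars) under 5 scalings of the samples, with filled points where the adjusted p of edgeR's quasi-likelihood test was under 0.05. Il6, Il12b, Il23a and Ebi3 are below 0 and filled under every scaling, from -4.96 for Il6 and -0.90 for Ebi3 under total counts, whereas Il27 and Il6st lie above 0 under total counts and Lif loses its call there.

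Il6, the acute-phase cytokine that names its family, showed the largest fall of all 269 genes tested in each of the 3 comparisons under housekeeping scaling. Its normalized counts with sham EVs were 2692, 2163 and 4146 (replicates 1 to 3), in the 2 Gy day 3 group 4066, 2759 and 2602, and in the 2 Gy day 7 group 3812, 2726 and 2098. At 9 Gy day 3 they were 29.1, 44.3 and 52.7, from raw counts of 4, 9 and 13, and in the 9 Gy day 7 group 41.1, 38.4 and 58.4, from raw counts of 68, 61 and 101. All 6 samples of the 9 Gy groups thus lay below all 9 others, by a wide gap, and the sham and 2 Gy samples overlapped. The group means were 3000 ± 1027 (SD, n = 3) for sham, 42.0 ± 12.0 for 9 Gy day 3 and 45.9 ± 10.9 for 9 Gy day 7. The log2 fold change against sham EVs was -6.10 (SE 0.39, adjusted p = 3.4e-08) at day 3 and -6.02 (SE 0.35, adjusted p = 1.43e-08) at day 7, and that against 2 Gy EVs was -6.07 (SE 0.26, adjusted p = 2.73e-10). At the shallow depth of the 9 Gy day 3 samples, the sham level would have given 592 raw counts a sample. Pooled over replicates, the 9 Gy day 3 level was 1.46% of the sham level (95% exact interval 0.956 to 2.15) and the day 7 level 1.53% (1.34 to 1.74), where these intervals, like those below, cover counting error only.

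Of the chains of IL-12 and IL-23, Il12b and Il23a fell with 9 Gy EVs, and Il12a was not tested. Il12b encodes the p40 chain that both cytokines use. Its normalized counts were 84.3, 72.7 and 104 with sham EVs, 94.4, 65.2 and 65.1 in the 2 Gy day 3 group, and 108, 81.4 and 83.2 in the 2 Gy day 7 group. In the 9 Gy day 3 group the raw count was 1 in each sample, and in the 9 Gy day 7 group the raw counts of 13, 4 and 7 gave 7.85, 2.52 and 4.05. No 9 Gy sample reached the lowest sham or 2 Gy sample. The 9 Gy means of 5.42 at day 3 and 4.80 at day 7 were at the level of the T cell markers Cd3d and Cd3e. Cd3d had means of 5.42 and 4.63 and Cd3e of 6.77 and 5.005, so Il12b was not distinguishable from background there. At day 3 a mean of 5.42 is what a raw count of 1 in all 3 samples gives. The match with Cd3d on that day is thus that of the lowest value deposited. The fitted log2 fold change against sham EVs was -4.06 (SE 0.51, adjusted p = 1.92e-05) at day 3 and -4.14 (SE 0.30, adjusted p = 1.41e-07) at day 7, and -4.02 (SE 0.28, adjusted p = 2.86e-08) against 2 Gy EVs. The calls thus show a fall from a measured level to background, and the fitted sizes are neither estimates nor bounds. They rested on the prior count added before the logarithm, and a prior count of 10 gave -2.68 at day 3 and -2.71 at day 7. The pooled counts give upper limits for the level of Il12b, of 17.3% of sham at day 3, where all 3 counts were the lowest value deposited, and of 8.39% at day 7 (upper ends of 95% exact intervals). How counts of 0 were handled before deposit is not given in the sources used here.

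Il23a encodes p19, the chain particular to IL-23. It was at 140, 377 and 213 normalized counts with sham EVs, at 287, 399 and 338 in the 2 Gy day 3 group and at 333, 408 and 367 in the 2 Gy day 7 group. At 9 Gy day 3 it was at 29.1, 4.92 and 8.11, from raw counts of 4, 1 and 2, and in the 9 Gy day 7 group at 9.06, 8.18 and 12.1, from 15, 13 and 21. The 9 Gy samples lay below all others. Of the 5 groups 9 Gy day 3, with these few counts, had the largest coefficient of variation (93.6%). The fitted log2 fold change was -4.32 (SE 0.52, adjusted p = 1.37e-05) against sham EVs at day 3, -4.61 (SE 0.38, adjusted p = 3.56e-07) at day 7 and -5.01 (SE 0.31, adjusted p = 1.09e-08) against 2 Gy EVs. With 9 Gy EVs Il23a was near the lower end of the assay, where Il12a had raw counts of 1 at day 3 and of 14 to 21 at day 7, so the pooled counts are given as upper limits, of 9.94% of the sham level at day 3 and 5.30% at day 7 (upper ends of 95% exact intervals). One of the 3 day 3 counts was the lowest value deposited. As for Il12b, the fitted sizes are neither estimates nor bounds and rested on the prior count, and a prior count of 10 gave -3.51 and -3.68 against sham EVs and -4.12 against 2 Gy EVs, while without 9 Gy day 3 replicate 1, the highest of its group, the day 3 value was -5.17, with the call kept in each case.

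Il12a, the p35 chain particular to IL-12, was near the lower end of the assay in every group. Its raw counts were 9, 21 and 18 with sham EVs, 8, 19 and 20 in the 2 Gy day 3 group, 18, 14 and 18 in the 2 Gy day 7 group and 15, 14 and 21 in the 9 Gy day 7 group. In the 9 Gy day 3 group the count was 1 in all 3 samples, where the sham level would have given 3.09. The T cell markers Cd3d, Cd3e and Cd4 had raw counts of up to 12, 15 and 15 over all samples. In a fit without the count filter, Il12a had a log2 fold change of -1.60 (SE 0.66, adjusted p = 0.0967) against sham EVs at 9 Gy day 3, -0.64 (SE 0.29, adjusted p = 0.0798) at day 7 and -1.07 (SE 0.35, adjusted p = 0.0244) against 2 Gy EVs. At day 3, where each count was the lowest value deposited, the upper 95% exact limit of its pooled level was 100.4% of sham, which did not separate it from the sham level, and at day 7 its level was 63.7% of sham (42.0 to 96.7). Its normalized counts in the 9 Gy day 7 group, 8.80 to 12.1, overlapped the sham range of 9.98 to 19.8.

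Of the chains of IL-27, Ebi3 fell with 9 Gy EVs and Il27 did not pass the threshold against sham EVs, and the difference between the genes was not tested. Ebi3, the beta chain, was even within groups, at 2725, 2294 and 2434 normalized counts with sham EVs, 2129, 2332 and 2410 in the 2 Gy day 3 group and 2321, 2499 and 2550 in the 2 Gy day 7 group. At 9 Gy day 3 it was at 451, 516 and 681, and in the 9 Gy day 7 group at 465, 608 and 773, in both cases below every other sample. Its log2 fold change against sham EVs was -2.17 (SE 0.19, adjusted p = 8.61e-07) at day 3 and -2.01 (SE 0.18, adjusted p = 9.36e-07) at day 7, and -2.02 (SE 0.13, adjusted p = 1.6e-08) against 2 Gy EVs. Under total-count scaling these were -1.16, -0.94 and -0.90, each still past the threshold.

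Il27, which encodes p28, had the largest coefficient of variation of the members in the sham group and in each 2 Gy group. Its normalized counts were 3011, 6408 and 2027 with sham EVs, 1905, 4318 and 4780 in the 2 Gy day 3 group and 2769, 6439 and 6775 in the 2 Gy day 7 group. With 9 Gy EVs they were 1776, 2532 and 2620 at day 3 and 2420, 2738 and 3437 at day 7. The 9 Gy samples overlapped both the sham and the 2 Gy samples taken over both days, and they spread less, while the 9 Gy day 3 samples lay below all 2 Gy day 7 samples. The log2 fold change against sham EVs was -0.72 (SE 0.44, adjusted p = 0.176) at day 3 and -0.41 (SE 0.43, adjusted p = 0.418) at day 7, neither past the threshold. Their direction depended on the scaling, as under total counts they were 0.32 and 0.70 and under TMM scaling -0.25 and 0.07, with no call. Against 2 Gy EVs it was -0.78 (SE 0.31, adjusted p = 0.0372), but with the 9 Gy day 3 samples left out it was -0.63 (adjusted p = 0.197), under total counts it was 0.36 (adjusted p = 0.25), and leaving out single samples gave -0.94 to -0.66 with the call kept in 7 of 15 cases. Leaving out 2 Gy day 3 replicates 2 or 3, 2 Gy day 7 replicates 2 or 3, 9 Gy day 3 replicates 1 or 2, or 9 Gy day 7 replicates 1 or 2 each ended it.

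Lif, the gp130 cytokine LIF, also fell, with smaller log2 fold changes than Il6. It was at 795, 1192 and 1287 normalized counts with sham EVs, 1272, 1000 and 990 in the 2 Gy day 3 group and 1201, 1222 and 1197 in the 2 Gy day 7 group. At 9 Gy day 3 it was at 444, 403 and 693, and in the 9 Gy day 7 group at 318, 253 and 754. Replicate 3 was the highest in both 9 Gy groups, and no 9 Gy sample reached the lowest sham sample. The log2 fold change against sham EVs was -1.08 (SE 0.35, adjusted p = 0.0198) at day 3 and -1.31 (SE 0.34, adjusted p = 0.00476) at day 7, and -1.26 (SE 0.24, adjusted p = 0.000477) against 2 Gy EVs. The day 3 call ended without 9 Gy day 3 replicate 1 (-0.99, adjusted p = 0.0656), without 9 Gy day 3 replicate 2 (-0.93, adjusted p = 0.0848) and without sham replicate 3 (-0.94, adjusted p = 0.0656). At day 7 the fall was larger without 9 Gy day 7 replicate 3, at -1.94 (adjusted p = 2.57e-05). The day 3 call ended too with replicates 1 and 2, whose day labels conflict, left out (-0.65, adjusted p = 0.366) and under TMM scaling (-0.61, adjusted p = 0.163). Under total counts the 3 values were -0.07, -0.27 and -0.17, none past the threshold.

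Il6st, which encodes the shared transducer gp130, had low counts. Its 9 Gy means of 36.8 at day 3 and 42.3 at day 7 lay above those of the T cell markers Cd3d and Cd3e and below those of Cd8a (57.7 and 58.3). Il6st was at 87.6, 67.1 and 85.1 normalized counts with sham EVs, 86.6, 78.6 and 47.7 in the 2 Gy day 3 group and 69.0, 60.8 and 71.6 in the 2 Gy day 7 group. At 9 Gy day 3 it was at 36.4, 29.5 and 44.6, from raw counts of 5, 6 and 11, and in the 9 Gy day 7 group at 41.7, 38.4 and 46.8. The 2 Gy day 3 replicate 3 lay just above the highest 9 Gy sample. The log2 fold change against sham EVs was -1.10 (SE 0.29, adjusted p = 0.00603) at day 3 and -0.91 (SE 0.20, adjusted p = 0.0017) at day 7, and -0.79 (SE 0.18, adjusted p = 0.00137) against 2 Gy EVs. Under TMM scaling the 3 values were -0.62, -0.43 and -0.33, and under total counts -0.10, 0.18 and 0.33, none of them past the threshold, so the direction for gp130 depended on the scaling. With the 9 Gy day 3 replicates of conflicting day labels left out, the day 3 value was -0.84 (adjusted p = 0.146).

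**Figure D3:**
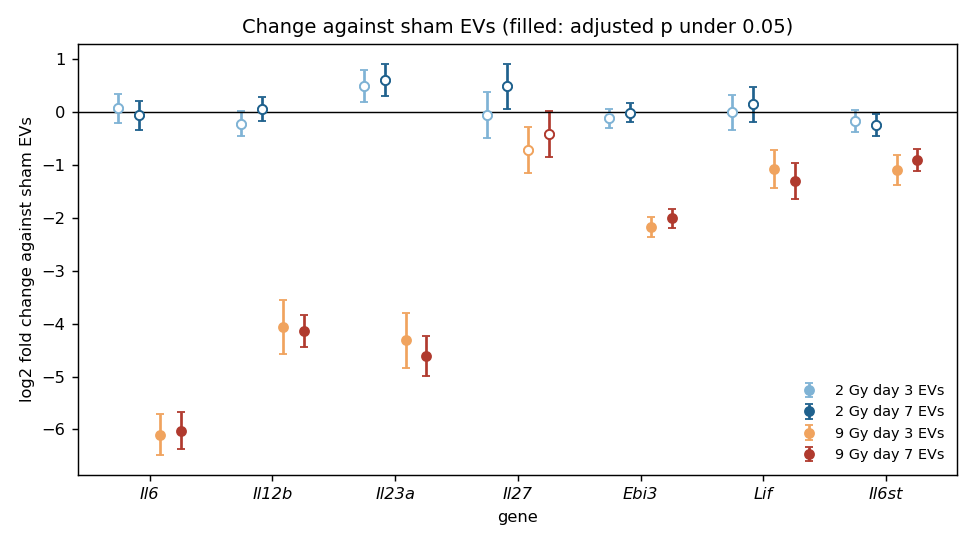
Log2 fold change against sham EVs (points, with SE as bars) of the 7 tested members in the 4 groups given EVs from irradiated mice, with filled points where the adjusted p of edgeR's quasi-likelihood test was under 0.05. The 2 Gy points lie between -0.25 and 0.60, and the 9 Gy points run from -6.10 for Il6 to -0.41 for Il27.

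With EVs from 2 Gy mice no member passed the threshold against sham EVs, at day 3 (0 of 7, where 0.0% of all 269 genes tested passed) or at day 7 (0 of 7, with 0.0% of all genes). By edgeR, 7 genes at day 3 and 1 at day 7 had an unadjusted p under 0.05, none of them a member, and DESeq2 called 0 genes in either. The median log2 fold change of the members was -0.06 at day 3 and 0.06 at day 7. The largest single values were those of Il23a, 0.49 (SE 0.30) at day 3 and 0.60 (SE 0.30, adjusted p = 0.944) at day 7. Each 2 Gy group overlapped the sham group for all 8 members. Without sham replicate 2, the highest sham sample of Il23a, these values were 0.95 and 1.06, and without sham replicate 1, the lowest, 0.21 and 0.33, with no call in any of these fits.

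In the fit of all groups without a block, the day after WBIR made no called difference at either dose. In the comparison of day 7 with day 3 EVs, 0 of 7 members passed at 2 Gy (0.0% of all genes tested) and 0 of 7 at 9 Gy (0.0%). At an unadjusted p under 0.05 edgeR gave 4 genes at 2 Gy and 6 at 9 Gy, and DESeq2 called 0 at both. The members' log2 differences of day 7 minus day 3 ran from -0.13 to 0.54 at 2 Gy and from -0.30 to 0.31 at 9 Gy. The highest at both doses was Il27, at 0.54 (SE 0.43, adjusted p = 0.998) for 2 Gy. With the replicate number as a block in a fit of the 2 Gy groups alone, Il27 had the same difference of 0.54 with an adjusted p of 0.00033, as 1 of 24 genes called higher there (8.92% of all genes tested), beside 3 called lower, and each day 7 replicate exceeded the day 3 replicate of the same number. With the block in a fit of all 5 groups it had an adjusted p of 0.977, and 0 genes were called. The pairing of the numbers rests on the values alone. A test of the day difference at 9 Gy against that at 2 Gy called 0 genes, with an adjusted p of 0.993 for each tested member.

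Ratios of 2 raw counts within a sample do not depend on the scaling, and are given as descriptions because the probes of different genes differ in efficiency, so that a ratio carries meaning only between samples. Il6 over Il27 was 0.338 to 2.05 with sham EVs, 0.544 to 2.13 and 0.31 to 1.38 with 2 Gy EVs of days 3 and 7, and 0.014 to 0.0201 in the 6 samples with 9 Gy EVs. Il27 over Ebi3, the 2 chains of IL-27, was 0.833 to 2.79 with sham EVs and 0.895 to 2.66 with 2 Gy EVs, and was 3.85 to 5.21 with 9 Gy EVs, with no overlap. Il6 over Ebi3 went from 0.823 to 1.91 in the sham and 2 Gy samples down to 0.0631 to 0.0883 in the 9 Gy samples. Il6 and its transducer also parted, since Il6 over Il6st was 29.3 to 55.3 outside the 9 Gy groups and 0.8 to 1.5 within them. By contrast Il23a over Il12b, the 2 chains of IL-23, overlapped, at 1.66 to 5.18 with sham EVs, 3.04 to 6.12 with 2 Gy EVs and 1.0 to 4.0 with 9 Gy EVs. The lowest and the highest of these 9 Gy ratios were from day 3, where Il12b had 1 count in each sample, and in both 9 Gy groups the denominator, Il12b, was at background.

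**Figure D4:**
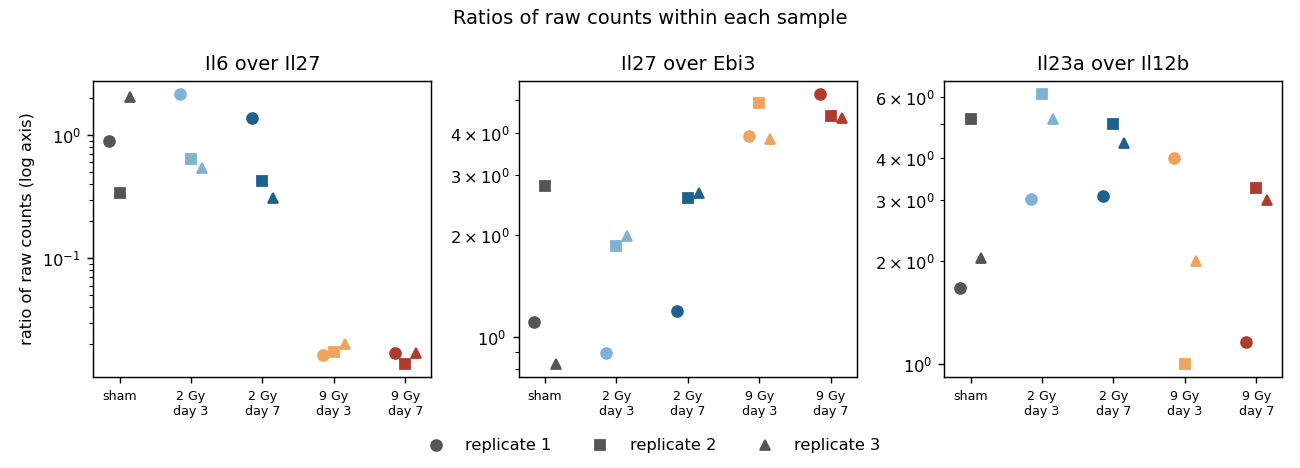
Ratios of raw counts within each sample (log axes) for Il6 over Il27, Il27 over Ebi3 and Il23a over Il12b in the 5 EV groups, with one marker shape for each replicate. The 9 Gy samples lie apart for Il6 over Il27 (0.014 to 0.0201) and Il27 over Ebi3 (3.85 to 5.21) and overlap the other samples for Il23a over Il12b.

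Within the sham and 2 Gy groups, Il6 and Il27 ran in opposite order. In each of these 3 groups the replicate with the highest Il6 had the lowest Il27 and the replicate with the lowest Il6 the highest Il27, for example 4146 and 2027 in sham replicate 3 against 2163 and 6408 in sham replicate 2. Replicate 1 had the highest Il6 in both 2 Gy groups and replicate 3 the lowest, so if the numbers pair the samples these groups do not repeat the pattern independently. Over all genes tested, sham replicate 3 deviated from its group mean like replicate 1 of 2 Gy day 3 (r = 0.731) and day 7 (0.783). Sham replicate 2 deviated the opposite way from both (-0.704 and -0.803). The opposite order may thus be part of a variation across the panel, and whether it is particular to Il6 and Il27 was not tested. It was noticed after the values were seen and is given with no test. In the 9 Gy groups the order was not opposite, as replicate 3 was highest for both genes on both days.

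**Figure D5:**
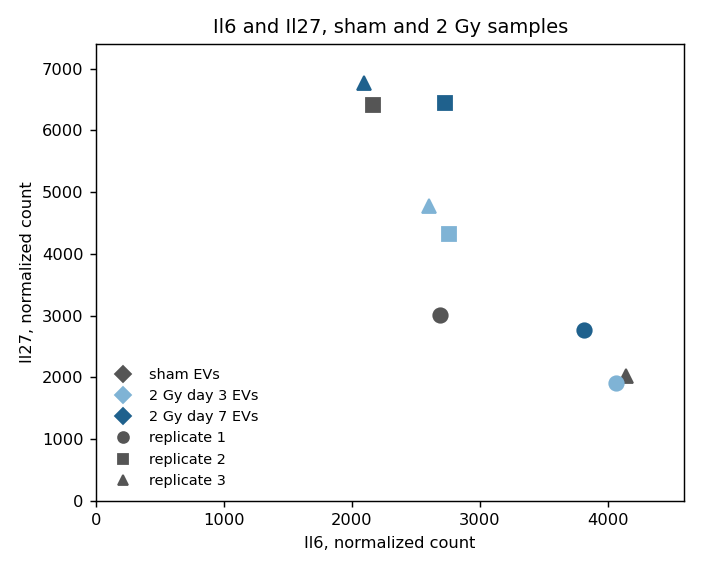
Il27 against Il6 (normalized counts, linear axes) in the 9 samples given sham or 2 Gy EVs, with colors for the groups and marker shapes for the replicates. Within each group the order of Il6 is opposite to that of Il27, whereas between groups samples of close Il6 differ in Il27, such as sham replicate 1 (2692 and 3011) and 2 Gy day 7 replicate 2 (2726 and 6439).

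The calls of most signaling genes changed with the scaling, whereas those of Il6, Il12b, Il23a and Ebi3 did not. Of a list of 17 receptors and signal transducers of these families, 13 were on the panel and 5 were tested. Against sham EVs, 2 fell and 1 rose at 9 Gy day 3, where 41.3% of all genes tested fell and 11.2% rose, and 4 fell and 1 rose at day 7, where 49.1% fell and 11.9% rose. The list medians of the log2 fold change were -0.55 and -0.62, close to the -0.46 and -0.45 of all genes tested. Against 2 Gy EVs 3 fell and 1 rose, beside 52.0% and 15.6% of all genes tested. With TMM scaling 1 rose in each comparison and 1 fell, at day 7. Of all 269 genes tested, TMM scaling called 60 lower and 59 higher at day 3, 76 and 75 at day 7, and 80 and 90 against 2 Gy EVs. With total counts 0 fell, beside 12.3%, 11.5% and 13.4% of all genes tested, while 2, 2 and 4 rose, beside 45.0%, 53.2% and 62.5%. The directions below thus hold relative to the housekeeping genes, except those of Tyk2 and Socs3. Stat3, the main STAT of gp130, fell by 0.43 (SE 0.17, adjusted p = 0.0447) at day 3 and by 0.60 (SE 0.16, adjusted p = 0.00485) at day 7 on the log2 scale, but rose by 0.58 (adjusted p = 0.0207) and by 0.49 (adjusted p = 0.0279) under total counts. Jak1 fell by 0.67 (SE 0.17, adjusted p = 0.00546) and by 0.77 (SE 0.16, adjusted p = 0.000786), with no call under TMM or total counts. Socs3, the feedback inhibitor of gp130 that STAT3 induces, was at -1.69 (SE 0.84, adjusted p = 0.105) at day 3 and fell by 2.39 (SE 0.69, adjusted p = 0.00866) at day 7. It was below 0 under each of the 5 scalings on both days, with the day 7 call kept under TMM scaling (-1.92, adjusted p = 0.0288) and not under total counts (-1.39, adjusted p = 0.0762). The kinase Jak2 was at -0.55 (adjusted p = 0.0651) at day 3 and fell by 0.62 (adjusted p = 0.022) at day 7. Tyk2, the kinase bound to the p40-binding receptor chain, rose by 1.28 (SE 0.26, adjusted p = 0.00109) and by 0.76 (SE 0.22, adjusted p = 0.00942), and by 2.31 and 1.88 under total counts. Of this list it was the 1 gene that rose under every scaling run. The receptor chains Il6ra, Il12rb1, Il12rb2, Il23r, Il27ra and Il11ra1, with Stat4 and Socs1, had means under 20 counts and were not tested, and Il6ra had raw counts of 2 to 28.

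Of 14 listed regulators of these transcripts, 11 were on the panel and 9 were tested. Cebpb, a C/EBP factor induced by LPS, fell by 2.22 (SE 0.37, adjusted p = 0.000199) at 9 Gy day 3 and by 2.24 (SE 0.35, adjusted p = 0.000119) at day 7 against sham EVs, and by 1.24 (adjusted p = 0.00519) and by 1.19 (adjusted p = 0.00404) under total counts. Irf8, a myeloid IRF, fell by 1.22 (SE 0.30, adjusted p = 0.00449) and by 0.60 (SE 0.25, adjusted p = 0.0496), calls that ended under TMM scaling (-0.75 and -0.12). Rela, the p65 subunit of NF-κB, rose by 0.55 (SE 0.21, adjusted p = 0.0397) at day 3 and was at 0.24 (adjusted p = 0.25) at day 7, and it rose by 1.02 and by 0.73 under TMM scaling. These were the 2 that fell and the 1 that rose at day 3, where 41.3% of all genes tested fell and 11.2% rose, and at day 7 the same 2 fell and none rose, where 49.1% fell and 11.9% rose, with list medians of -0.12 and 0.23 beside -0.46 and -0.45 for all genes tested. Under total counts 1 fell, Cebpb, and 7 of the 9 rose on each day, where 45.0% and 53.2% of all genes tested rose. The other 6 tested were Nfkb1, Nfkbiz, Irf1, Irf5, the LPS receptor Tlr4 and its adaptor Myd88, and none passed the threshold against sham EVs under scaling to all 14 housekeeping genes, with log2 fold changes from -0.21 to 0.90 at day 3 and from -0.39 to 1.07 at day 7. With the housekeeping genes limited to those with a mean of at least 100 counts, Nfkb1, the p105 and p50 subunit of NF-κB, rose at day 3 (0.72, adjusted p = 0.0203) and Myd88 at day 7 (0.66, adjusted p = 0.0291). Under TMM scaling 2 of the 9 rose at day 3 and 5 at day 7, beside 59 and 75 of all 269 genes tested. Il10 and Maf were not tested. The list of 5 further ligands of the gp130 family, had no gene on the panel. With 2 Gy EVs 0 genes of either list passed against sham EVs.

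The genes most like each member across the 15 samples were found by Pearson's r of log2 normalized counts, a description that follows mostly how the 6 samples of the 9 Gy groups stand apart from the other 9. For Il6 they were B2m (0.992), Arhgdib (0.992) and Fcer1g (0.991), and for Il12b they were Cd74 (0.982), Arhgdib (0.980) and Fcer1g (0.971). For Il23a they were Ccl3, Cd74 and Ccrl2 (0.970 to 0.972), and for Ebi3 Ccl5, Tollip and Irf7 (0.993 to 0.996). Lif was nearest to Ptgs2 (0.974), Pdgfb (0.949) and Tnfrsf1b (0.939), and Il6st to Ceacam1 (0.940), Psmb7 (0.929) and G6pdx (0.924). G6pdx is among the housekeeping genes used for the scaling. Il27 was nearest to Blnk (0.954), Itga5 (0.900) and Clec4e (0.892). Genes shared between members occurred only among Il6, Il12b and Il23a, so Il27, Ebi3, Lif and Il6st each had like genes of their own.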

How the data were processed

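RNA of 15 macrophage samples was counted on the nCounter Mouse Immunology panel. The authors deposited raw counts per gene, as whole numbers with no count under 1 and without control probes, so no background was subtracted. Their nSolver v4.0 normalized values were not used here. There was 1 probe set a gene, so levels were not compared between genes, except with T cell markers and Il12a as a guide to background. Counts were divided by each sample's geometric mean of the 14 housekeeping genes over its mean across samples. Genes whose mean reached 20 counts (269 of 561, 13 of them housekeeping genes) entered one fit of the 5 groups by edgeR 4.0.16 in R 4.3.3 (quasi-likelihood test, prior count 0.125, two-sided), with Benjamini-Hochberg adjustment over these genes and a threshold of 0.05. The SE is the absolute log2 fold change over the square root of F. The procedure was tested on simulated data, in which only genes other than the housekeeping genes changed and only at 9 Gy day 7. That test could not probe a change of the housekeeping genes themselves. DESeq2 1.42.0, other scalings, filters, prior counts, day labels and blocks were alternatives. Leaving out the 9 Gy day 3 samples was chosen after seeing the data. Same-numbered samples deviated together between the 2 Gy groups (r from 0.365 to 0.779) and the 9 Gy groups (0.33 to 0.717), so by a rule that each r exceed 0.1 numbers were taken to pair samples between days, from the values alone. Other numbers were at times as alike or more so: 2 Gy day 3 replicate 3 was nearest to day 7 replicate 2 (0.611, own number 0.534), replicate 2 to 3 (0.381, own 0.365), and 9 Gy day 3 replicate 1 to day 7 replicate 2 (0.421, own 0.33). Named were the 8 members, the listed genes past the threshold in any comparison or at background, and 3 most alike genes a member. The 6 tested regulators that passed in no comparison under scaling to all 14 housekeeping genes were named after their values were seen. One gene of a list is not reported here and was left out of its counts. The members and lists were chosen with earlier results of these data known. Pooled ratios have 95% exact intervals. Sequences came from RefSeq (GRCm38.p6).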

Additional observations from a re-analysis of the deposited data

How the results depend on the processing

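Over 49 member values (7 genes in 7 comparisons), 1398 of 1442 recomputed values kept their direction and side of the threshold, or had no call in either fit. Il6, Il23a and Ebi3 kept their calls at 9 Gy in every alternative run, and Il12b in all but 1. The members called with 9 Gy against 2 Gy EVs, all lower, went from 7 to 4 with total-count scaling and were 6 without the 9 Gy day 3 samples. Of all 269 genes tested, 140, 36 and 132 were called lower in these fits. With the replicate number as a block and only the groups compared, 1 member (Il27) was called between the days at 2 Gy, and the block changed no other member's call, while the block fitted on all groups called 0 there. Under total counts Il27 (0.36) and Il6st (0.33) turned against 2 Gy EVs, and Il6st (0.18) against sham EVs at day 7, as did Il27, uncalled, against sham EVs on both days (0.32 and 0.70). Raising counts under 20 to 20 lifts the shallow 9 Gy day 3 samples by construction. It gave 0.26 for Il12b and 0.39 for Il6st against sham EVs there, and 4 called members between the 9 Gy days, among them Il6 (-1.19) and Il6st (-1.30), beside 87 of all 269 genes tested, all lower. Leaving out single samples left 5 to 6 members called at 9 Gy day 3, 6 at day 7, 6 to 7 against 2 Gy EVs and 0 elsewhere. Of all 269 genes tested, the same fits called 113 to 145 at 9 Gy day 3, 146 to 172 at day 7, 165 to 184 against 2 Gy EVs and 0 elsewhere. Leaving out or moving the samples with conflicting day labels, which leaves 1 sample at 9 Gy day 3, left 4 members called there, all lower, beside 70 and 66 of all genes tested called lower, against 111 with these samples at day 3 (78 and 74 called in all, against 141). That lone sample is assumed to vary like the others. Depth limits Il12a, Il12b and Il23a at 9 Gy day 3, where raw counts of 1 to 4 set the values.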
